A study of Rattus norvegicus with 12 samples.

Results

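A set of 49 genes of the glutathione, thioredoxin and antioxidant enzyme systems was read from a whole-transcript rat gene array in cultured Sertoli cells, which line the seminiferous tubule and nurse the germ cells. A gene was included where the array's annotation put its probe set in the main category, gave it exactly 1 symbol, and that symbol named a superoxide dismutase, catalase, a glutathione peroxidase, a peroxiredoxin, a thioredoxin or thioredoxin reductase, a glutaredoxin, an enzyme of glutathione synthesis or reduction, a glutathione transferase, a heme oxygenase, a quinone reductase or sulfiredoxin. This gave 49 of the 18305 genes with 1 symbol. Where a symbol had several probe sets, the one of highest mean over the 6 arrays was taken, which concerned Prdx1 alone.

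The MBP group was Sertoli cells of 9-day-old rats that had been cultured for 24 h and then received 0.1 mM of a compound that the labels abbreviate as MBP for another 24 h, and the control group was cells handled alike and given solvent (3 arrays each). All cultures came from digested testes, and the medium held 10% fetal bovine serum. The labels give no rat strain and do not say whether the sample numbers 1 to 3 stand for animals, isolations or dishes. The p-values therefore reflect only how these arrays vary, which may be technical. Values are log2 signals as the authors deposited them. Differences set a probe set's log2 signal only against itself on other arrays. The tests of these differences also drew on the variances of the other main probe sets. Background calls, choices by brightness and sums over marker lists used the signals of different probe sets together.

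Cells make superoxide and hydrogen peroxide in respiration and in steroid and lipid metabolism. Superoxide dismutases turn superoxide into hydrogen peroxide, which catalase, glutathione peroxidases and peroxiredoxins then remove. The glutathione peroxidases and peroxiredoxins do so with electrons that reach them from NADPH through glutathione or thioredoxin. Many of these genes carry antioxidant response elements, the DNA sites through which the transcription factor NRF2 (gene Nfe2l2) raises their transcription when the sensor KEAP1 releases it. In the testis, glutathione transferases and peroxidases of somatic cells are known for handling electrophiles and lipid peroxides beside the germ cells.

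A probe set was called above background on an array where its log2 signal exceeded the 95th percentile of that array's 1153 intron control probe sets, which lay between 5.67 and 6.20. By this measure 34 of the 49 genes were above background on all 6 arrays, 4 on some arrays and 11 on none. The 11 were Gpx2, Gpx5, Gpx6, Txnrd3, Gsta5 (Gsta3 in RefSeq), Gstm3, Gstm6, Gstm7, Gstt2, Gstt4 and Hmox2. The probe sets used for these genes measured no level or response. A probe set that names GSTA1 and Gsta3 together was not a member, was above background on all 6 arrays and is given below. Gpx2 and Gpx5 are known as the glutathione peroxidases of the gut and of the epididymis, and Txnrd3 as the thioredoxin glutathione reductase of male germ cells.

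The labelled cell type was checked against marker genes. Of 14 Sertoli markers measured (17 listed), 5 were above background on all arrays, namely Wt1, Gata4, Clu, Inhba and Fshr, whose brightest probe set lies outside that gene and also names GAPDH. In contrast, Amh, Cldn11, Inha and Dhh were below background on every array. All 11 measured markers of peritubular myoid cells and fibroblasts (12 listed) were above background. Above background among the other markers were Star of 6 Leydig markers and Cd14 of 8 macrophage markers, and none of 6 germ cell, 4 endothelial and 4 red cell markers.

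No antioxidant gene passed the test of MBP against control. Each gene was fitted as MBP minus control with limma over all 27342 main probe sets, and a call required a Benjamini-Hochberg adjusted p under 0.05. Of the 49 genes 0 passed, against 0% of all probe sets, and 1 gene had an unadjusted limma p under 0.05, against 1.28% of all probe sets. That gene was Gstm7, also the sole gene whose MBP and control values did not overlap (against 3.43% of all probe sets), and its values were all below background. Of the 34 genes above background 0 had an unadjusted limma p under 0.05, against 0.189% of such probe sets, and 0 had groups that did not overlap, against 1.45%. Log2 differences of the 49 genes ran from -0.22 to 0.17, with a median of -0.019, beside -0.0086 over all 18305 genes.

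The sign of the differences depended on the scaling of the arrays. MBP means were below control means in 33 of 49 genes, against 53.4% of all probe sets, and in 26 of the 34 genes above background, or 76.5%, against 68.6% of probe sets above background. After median centring of each array the count was 39 of 49, and after quantile normalization 25 of 49, so no direction is given for the set. MBP was below control in all 3 sample numbers for 13 genes, or 26.5%, against 12.3% of all probe sets, and above it for 2 genes, against 9.08%. Of the 34 genes above background it was below control in all 3 numbers for 10, against 21.7% of such probe sets, and above it for 1, against 5.91%. The median difference was -0.051, -0.028 and -0.0094 in numbers 1, 2 and 3. Leaving out 1 array left unequal sample numbers in the groups and moved the median to between -0.155 (without control array 3) and 0.0869 (without MBP array 3), and without MBP array 1 or 2 or control array 1 or 2 it was -0.0993, -0.0796, 0.0374 and 0.0341.

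The 5 genes above background of smallest unadjusted limma p were Gstm2, Prdx3, Glrx5, Gstm5 and Prdx4, and none of them passed. Gstm2, a mu class glutathione transferase, had log2 signals of 7.02, 7.06 and 6.99 on MBP arrays 1 to 3, against 7.17, 7.21 and 7.05 on control arrays 1 to 3. The MBP values lay low, and number 2 with MBP overlapped the lowest control value. The difference was -0.12 (95% interval -0.27 to 0.028, limma, adjusted p = 1). Prdx3, the peroxiredoxin of mitochondria, stood at 8.76, 8.61 and 8.62 on MBP arrays 1 to 3, against 8.80, 8.71 and 8.69 on control arrays 1 to 3. Groups overlapped, and the difference was -0.070 (95% interval -0.23 to 0.089, limma, adjusted p = 1). Glrx5, a mitochondrial glutaredoxin that serves iron-sulfur cluster assembly, was lower with MBP in all 3 numbers at 7.61, 7.65 and 7.16 on MBP arrays 1 to 3, against 7.83, 7.72 and 7.38 on control arrays 1 to 3. Number 3 of either group was the low one, so the groups overlapped widely. Gstm5 read 8.34, 8.10 and 7.78 on MBP arrays 1 to 3, against 8.73, 8.10 and 8.05 on control arrays 1 to 3, and the number 2 values were alike in both groups while the other 2 numbers were lower with MBP. Prdx4, which works in the endoplasmic reticulum, had 7.11, 7.06 and 6.77 on MBP arrays 1 to 3, against 7.24, 7.03 and 6.97 on control arrays 1 to 3, with overlapping groups.

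Arrays of the same number deviated together. Deviations from the group means correlated at 0.567, 0.603 and 0.779 between the MBP and control arrays of the same number, across all main probe sets, and at -0.535 to 0.048 between arrays of different numbers. With the number as a block, the 95% interval of the MBP difference excluded a 2-fold change for all 34 genes above background, against 29 of 34 without the block. Mgst1 had an interval of -2.04 to 1.98 without the block and of -0.16 to 0.10 with it. No gene passed with the block either (limma, smallest adjusted p = 0.865), and 5 had an unadjusted p under 0.05, or 10.2%, against 4.59% of all probe sets. Among the 34 genes above background these were 2, or 5.88%, against 3.03%. The blocked difference of the secreted glutathione peroxidase Gpx3 was -0.20 (95% interval -0.34 to -0.07), and that of Glrx5 -0.17 (95% interval -0.32 to -0.02), neither past the adjusted threshold. The other 3 were Gstm4, Gstm7 and Mgst3, which were below background on 1 or more arrays.

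**Figure D1:**
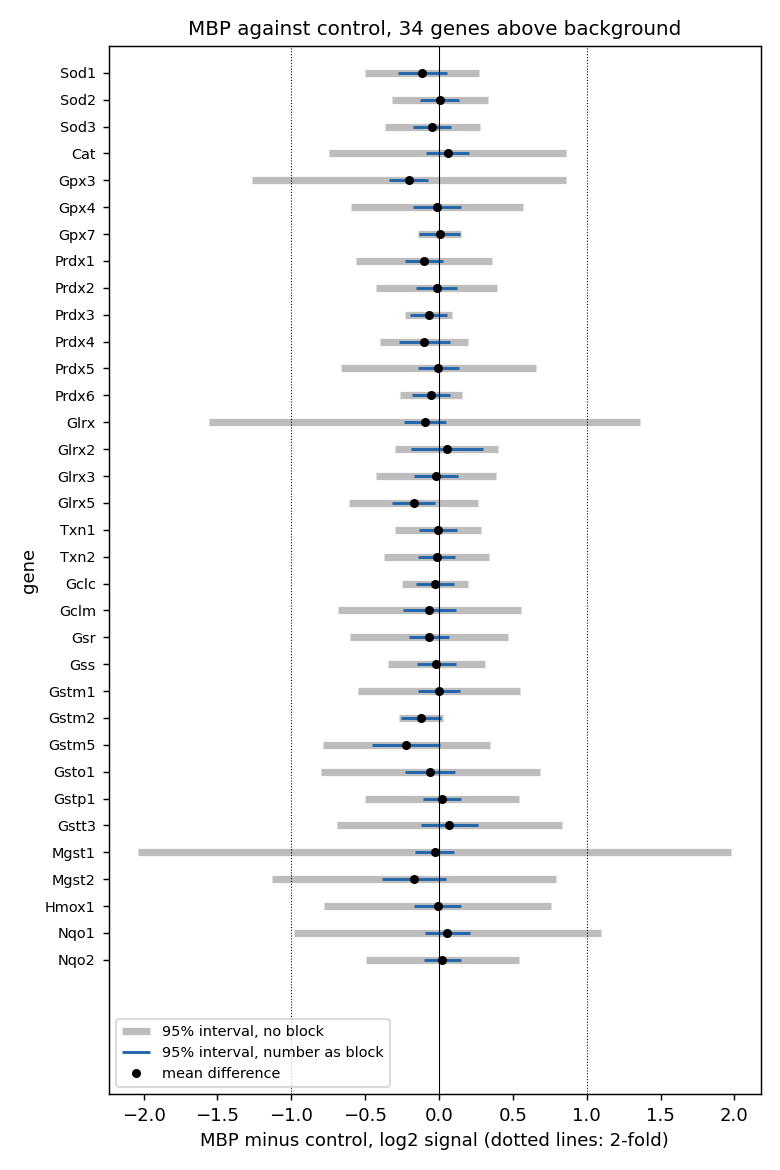
Difference of MBP minus control in log2 signal for the 34 genes above background on all 6 arrays, 1 row a gene, grouped by role. Points are mean differences, grey bars 95% limma intervals without a block and blue bars those with the sample number as a block. All points lie between -0.22 and 0.071, and every blue bar lies within the dotted lines at a 2-fold change.

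The 3 sample numbers differed in 24 of these genes, and number 3 was the lowest in 23 of them. Each number holds 1 MBP and 1 control array, and the numbers were compared with limma's F test in a model that also holds the group. Of the 49 genes 24 passed (adjusted F test p under 0.05), or 49%, against 9.62% of all probe sets, and in 23 of the 49, or 46.9%, number 3 was lowest, against 3.9% of all probe sets. Among genes above background on all 6 arrays 21 of 34 passed, or 61.8%, against 24.1% of probe sets above background, and in 20 of the 34, or 58.8%, number 3 was lowest, against 10%. Number 3 was highest in 1 gene that passed, against 4.67% of all probe sets and 11.9% of those above background. Both arrays of number 3 lay below the other 4 arrays in 35 of the 49 genes (71.4%, against 15.5% of all probe sets) and above them in 2 (4.08%, against 13.8%). Over the 34 genes above background these counts were 29, against 30.4% of such probe sets, and 2, against 26.3%. In limma contrasts of single numbers, 23 genes were higher in number 1 than in number 3 and 0 lower, against 4.18% and 4.39% of all probe sets. Number 2 was higher than number 3 in 24 and lower in 1, against 4.82% and 5.72%. The median difference of number 1 minus number 3 was 0.33 over the 49 genes and -0.012 over all 18305 genes, and that of number 2 minus number 3 was 0.35 and 0.0020.

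Between numbers 1 and 2, Gpx3 alone passed in the contrast of number 1 minus number 2 (limma, adjusted p = 0.0401), against 0.197% of all probe sets higher in number 1 and 0.135% lower. These contrasts between single numbers were chosen after the values were seen. Without any 1 of the 6 arrays (MBP 1, 2 or 3 or control 1, 2 or 3), the model kept 1 residual degree of freedom and limma's F test called 0 genes and 0 probe sets after adjustment. At an unadjusted F test p under 0.05 there were then 28 to 33 of the 49 genes, against 16.4% to 22.4% of all probe sets, beside 35 genes and 27.2% with all 6 arrays. Number 3 was lowest in 26 to 31 of those genes. With both arrays of number 3 left out, 13 of the 49 genes differed between numbers 1 and 2 at an unadjusted p under 0.05 and 0 after adjustment, against 13.3% and 0 of all probe sets.

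**Figure D2:**
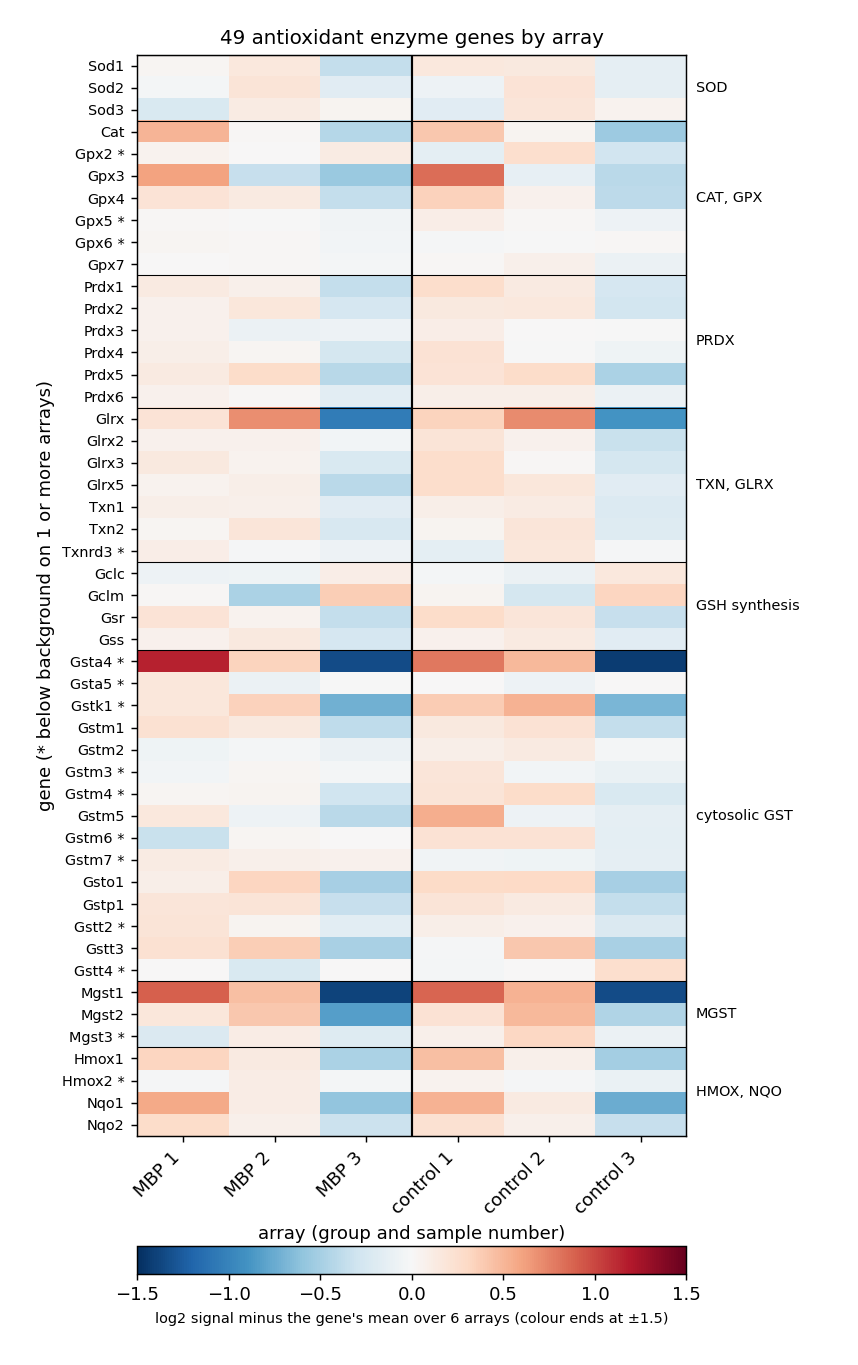
Log2 signal of each of the 49 genes on each array minus the gene's mean over the 6 arrays, with MBP arrays left of the line and control arrays right of it, and genes grouped by role. Asterisks mark genes below background on 1 or more arrays. The MBP 3 and control 3 columns are blue, below the gene's mean, for most genes, and Gclm and Gclc are the reverse.

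Other features of the arrays moved with the numbers. The 95th percentile of the intron controls was 6.18 and 6.20 on MBP array 3 and control array 3, against 5.67 to 5.88 on the other 4, and the median of the exon controls was 7.08 and 7.06, against 7.19 to 7.35. Of the 11 myoid and fibroblast markers 9 passed the F test, beside 24.1% of all probe sets above background, 7 of them highest in number 3, among them Myh11, Actg2, Cnn1 and Des. Dcn was lowest in number 3 and Thy1 in number 2. Their summed linear signal was 19099 on MBP array 3 and 19261 on control array 3, against 11534 to 12729 on the other MBP arrays and 12437 to 12554 on the other control arrays. Of the 14 Sertoli markers 4 passed, beside 9.62% of all probe sets, with Sox9, Clu and Inhba highest and Aard lowest in number 3. Of the 5 Sertoli markers above background 2 passed, Clu and Inhba, or 40%, beside 24.1%. Without the Fshr probe set, the other 13 summed to 2573 on MBP array 3, against 1652 and 1955 on MBP arrays 1 and 2, and to 2570 on control array 3, against 1724 and 2073 on control arrays 1 and 2. With it the sums were 4073 and 3964 on the MBP and control arrays of number 3, and 3379 to 3653 on the other MBP arrays and 3308 to 3617 on the other control arrays. Linear sums follow the brightest markers of a list. Over the 14 Sertoli markers the median log2 difference was -0.13 for number 1 minus number 3 and 0.0042 for number 2 minus number 3. Over the 11 myoid and fibroblast markers these medians were -0.53 and -0.72. Of the 8 macrophage markers Cd14 and Ptprc passed, or 25%, beside 9.62% of all probe sets, both lowest in number 3. Ptprc was not above background on all arrays. The macrophage list summed to 241 on MBP array 3, against 304 to 310 on the other MBP arrays. It summed to 231 on control array 3, against 302 to 334 on the other control arrays. Of this list Cd14 alone was above background on all arrays. Over the 8 markers the median log2 difference was -0.021 for number 1 minus number 3 and 0.044 for number 2 minus number 3. None of the 6 Leydig, 6 germ cell, 4 endothelial and 4 red cell markers passed. The part of these features in the differences between numbers was not tested. In such cultures fewer cells of a type and less RNA per cell cannot be told apart.

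No superoxide dismutase passed between numbers in the fit reported, though Sod2 and Sod3 each passed in 5 of 6 other processing settings. The counts by role, here and below, stand beside 9.62% of all probe sets and 24.1% of those above background. Sod1, the copper and zinc enzyme of the cytosol, had log2 signals of 8.78, 8.91 and 8.39 on MBP arrays 1 to 3, against 8.91, 8.90 and 8.61 on control arrays 1 to 3 (F test, adjusted p = 0.0642). Number 3 was low in both groups. Sod2, the manganese enzyme of mitochondria, stood at 10.95, 11.17 and 10.81 on MBP arrays 1 to 3, against 10.90, 11.18 and 10.84 on control arrays 1 to 3, and number 2 was the highest (F test, adjusted p = 0.0556). Sod3, which is secreted, had 8.68, 9.04 and 8.96 on MBP arrays 1 to 3, against 8.75, 9.09 and 8.97 on control arrays 1 to 3, and here number 1 was the lowest (F test, adjusted p = 0.0544).

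Enzymes that remove hydrogen peroxide and lipid peroxides passed in part. Catalase, the peroxide-degrading enzyme of peroxisomes (Cat, chromosome 3, 100021859 to 100053940, Rnor_5.0), had 10.53, 10.04 and 9.59 on MBP arrays 1 to 3, against 10.43, 10.07 and 9.49 on control arrays 1 to 3. Number 1 was at 1.92-fold (95% interval 1.70 to 2.18) and number 2 at 1.43-fold (1.26 to 1.62) number 3 (F test, adjusted p = 0.0109). In both groups the 3 numbers took the same order. Gpx3, the glutathione peroxidase that cells secrete, read 7.65, 6.71 and 6.49 on MBP arrays 1 to 3, against 7.89, 6.93 and 6.65 on control arrays 1 to 3. Number 1 was the high one, at 2.30-fold number 3, while number 2 was at 1.19-fold (F test, adjusted p = 0.00595). Gpx4, which reduces phospholipid hydroperoxides in membranes, had 7.82, 7.74 and 7.25 on MBP arrays 1 to 3, against 7.96, 7.67 and 7.22 on control arrays 1 to 3 (F test, adjusted p = 0.0247). Gpx7, of the endoplasmic reticulum, stood at 8.98, 8.99 and 8.95 on MBP arrays 1 to 3, against 8.98, 9.04 and 8.88 on control arrays 1 to 3 (F test, adjusted p = 0.553).

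All 6 peroxiredoxin genes were above background, and 3 passed between numbers, each lowest in number 3. Prdx5, found in mitochondria, peroxisomes and cytosol, had 9.71, 9.85 and 9.15 on MBP arrays 1 to 3, against 9.78, 9.84 and 9.10 on control arrays 1 to 3. Both number 3 values lay below the rest, with number 1 at 1.53-fold and number 2 at 1.65-fold number 3 (F test, adjusted p = 0.0136). Prdx1, of the cytosol, had 10.28, 10.22 and 9.79 on MBP arrays 1 to 3, against 10.41, 10.28 and 9.90 on control arrays 1 to 3 (F test, adjusted p = 0.0249). The probe set that the rule takes lies on chromosome 2 (162653532 to 162654131, Rnor_5.0), and the annotation flags 5 of its 7 transcripts as cross-hybridising. A Prdx1 probe set that the array places on another chromosome had 10.26, 10.13 and 9.70 on MBP arrays 1 to 3, against 10.42, 10.21 and 9.82 on control arrays 1 to 3, the same pattern. Prdx2 passed too (F test, adjusted p = 0.0373), with means of 9.19, 9.24 and 8.81 in numbers 1, 2 and 3. Prdx6, which also acts as a phospholipase, had 9.40, 9.35 and 9.17 on MBP arrays 1 to 3, against 9.41, 9.42 and 9.24 on control arrays 1 to 3 and did not pass (F test, adjusted p = 0.171). Prdx3 and Prdx4, given above, did not pass either (F test, adjusted p = 0.365 and adjusted p = 0.145).

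Of the 7 thioredoxin, thioredoxin reductase and glutaredoxin genes 4 passed, all lowest in number 3. Glrx, the cytosolic enzyme that removes glutathione from proteins (chromosome 2, 2604443 to 2614390, Rnor_5.0), had 7.82, 8.31 and 6.57 on MBP arrays 1 to 3, against 7.94, 8.33 and 6.71 on control arrays 1 to 3. Number 2 was at 3.20-fold (95% interval 2.84 to 3.60) and number 1 at 2.37-fold (2.10 to 2.66) number 3 (F test, adjusted p = 0.00413). The MBP and control arrays of a number lay close together. Glrx3, a cytosolic partner in iron-sulfur protein assembly, read 8.27, 8.17 and 7.88 on MBP arrays 1 to 3, against 8.39, 8.14 and 7.85 on control arrays 1 to 3 (F test, adjusted p = 0.0445). Glrx5 passed as well (F test, adjusted p = 0.0377), and the mitochondrial Glrx2 did not (F test, adjusted p = 0.264). Txn1, cytosolic thioredoxin, had 11.42, 11.40 and 11.15 on MBP arrays 1 to 3, against 11.41, 11.44 and 11.13 on control arrays 1 to 3 and did not pass in the fit reported (F test, adjusted p = 0.069) but did in 3 of 6 other settings. Mitochondrial Txn2 passed (F test, adjusted p = 0.0425) with number means of 8.12, 8.27 and 7.87.

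Of the 4 genes of glutathione synthesis and reduction 2 passed, in opposite directions. Gclm, the modifier subunit of glutamate-cysteine ligase, which makes the first step (chromosome 2, 243862903 to 243883273, Rnor_5.0), had 6.68, 6.18 and 7.02 on MBP arrays 1 to 3, against 6.70, 6.40 and 6.98 on control arrays 1 to 3. Number 3 was the highest and number 2 the lowest in both groups, and Gclm was the sole gene of the 24 that passed with number 3 highest (F test, adjusted p = 0.0273). Its number 2 mean was 0.61 times that of number 3 (95% interval 0.52 to 0.71). Gclc, the catalytic subunit of the same enzyme, had 8.22, 8.22 and 8.40 on MBP arrays 1 to 3, against 8.26, 8.20 and 8.45 on control arrays 1 to 3. Both number 3 values lay above the other 4, and Gclc did not pass (F test, adjusted p = 0.151). Gss, glutathione synthetase, which makes the second step, had 7.35, 7.44 and 7.04 on MBP arrays 1 to 3, against 7.35, 7.42 and 7.11 on control arrays 1 to 3 and did not pass in the fit reported (F test, adjusted p = 0.0558) but did in 6 of 6 other settings. Gsr, the reductase that regenerates glutathione from its disulfide, had 7.48, 7.32 and 6.92 on MBP arrays 1 to 3, against 7.55, 7.45 and 6.92 on control arrays 1 to 3. Number 1 was at 1.51-fold and number 2 at 1.38-fold number 3 (F test, adjusted p = 0.0206).

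Of the 3 membrane-bound glutathione transferases 2 passed, and Mgst1 had the widest range between number means of the 34 genes above background. Mgst1, a transferase and peroxidase of the endoplasmic reticulum and the outer mitochondrial membrane (chromosome 4, 236372197 to 236387443, Rnor_5.0), had 10.46, 10.02 and 8.18 on MBP arrays 1 to 3, against 10.43, 10.09 and 8.22 on control arrays 1 to 3. Both number 3 arrays lay far below the other 4, and MBP and control arrays of each number lay close together. Number 1 was at 4.74-fold (95% interval 4.24 to 5.30) and number 2 at 3.61-fold (3.23 to 4.04) number 3 (F test, adjusted p = 0.00277). In the signed difference of number 1 minus number 3, Mgst1 ranked 1 of the 6341 probe sets above background, Glrx 10, Nqo1 13 and Gpx3 14. By the range between number means, Mgst1 ranked 9 of these probe sets, Glrx 25, Nqo1 86 and Gpx3 91. Mgst2, which also takes part in leukotriene synthesis, had 8.73, 8.96 and 7.73 on MBP arrays 1 to 3, against 8.78, 9.04 and 8.11 on control arrays 1 to 3, lowest in number 3 (F test, adjusted p = 0.0151). Number 1 was at 1.78-fold (95% interval 1.48 to 2.14) number 3. Mgst3 was above background on 3 arrays and did not pass (F test, adjusted p = 0.0766).

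Cytosolic glutathione transferases, counted here together with Gstk1, which is not cytosolic, numbered 15. Of these 15 genes, 6 were above background on all arrays and 7 passed between numbers, each lowest in number 3. Gsta4, an alpha class enzyme that conjugates the lipid peroxidation product hydroxynonenal (chromosome 8, 85067703 to 85078443, Rnor_5.0), had 7.49, 6.66 and 4.99 on MBP arrays 1 to 3, against 7.12, 6.81 and 4.90 on control arrays 1 to 3 and was chosen for its values after they were seen. Both number 3 arrays lay below background, so number 1 was at least 2.16-fold and number 2 at least 1.46-fold above number 3 (F test, adjusted p = 0.00651), with the background level of each array taken in place of the lower signal. Gstk1, of mitochondria and peroxisomes, was likewise at least 1.75-fold and 1.96-fold higher in numbers 1 and 2 (F test, adjusted p = 0.00749), with means of 7.00, 7.16 and 6.02. Gstt3, a theta class enzyme, had 7.69, 7.83 and 6.98 on MBP arrays 1 to 3, against 7.45, 7.87 and 6.98 on control arrays 1 to 3. Number 1 was higher with MBP than in control, and number 3 was low in both groups (F test, adjusted p = 0.02). Gsto1, an omega class enzyme that reduces dehydroascorbate, had 8.04, 8.27 and 7.45 on MBP arrays 1 to 3, against 8.23, 8.25 and 7.45 on control arrays 1 to 3 (F test, adjusted p = 0.0158). Gstp1, of the pi class, had 10.86, 10.88 and 10.33 on MBP arrays 1 to 3, against 10.88, 10.81 and 10.33 on control arrays 1 to 3 (F test, adjusted p = 0.0191).

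Of the 7 mu class genes, 6 have an Ensembl position, in a cluster on chromosome 2 between 230189594 and 230308113 (Rnor_5.0). The RefSeq promoter window of the other, Gstm5, also lies on chromosome 2 (GRCr8). It starts at 198219519, near that of Gstm7 at 198260320. Gstm1 had 9.13, 9.04 and 8.52 on MBP arrays 1 to 3, against 9.05, 9.11 and 8.54 on control arrays 1 to 3 and passed (F test, adjusted p = 0.0213). Its neighbour Gstm2, given above, did not (F test, adjusted p = 0.507). Gstm4, below background in number 3, passed (F test, adjusted p = 0.0443). With the background level in place of its number 3 signal, numbers 1 and 2 were at least 1.04-fold and 1.07-fold higher, so little difference was measured. Gstm3, Gstm6 and Gstm7 were below background on every array. Gstm5, for which the annotation gives no Ensembl position, did not pass in the fit reported (F test, adjusted p = 0.0563) but did in 5 of 6 other settings, with number means of 8.54, 8.10 and 7.91. Genes of this class have closely related sequences, and although the annotation flags no cross-hybridising transcript for them, how far their probe sets tell them apart was not tested.

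Of the inducible enzymes, Nqo1 and Hmox1 passed with number 3 lowest. Nqo1, which reduces quinones to hydroquinones (chromosome 19, 49291903 to 49306795, Rnor_5.0), had 10.86, 10.40 and 9.69 on MBP arrays 1 to 3, against 10.81, 10.43 and 9.54 on control arrays 1 to 3. The numbers took the same order in both groups, with number 1 at 2.32-fold (95% interval 2.04 to 2.64) and number 2 at 1.73-fold (1.53 to 1.97) number 3 (F test, adjusted p = 0.00745). Hmox1, which cleaves heme to biliverdin, iron and carbon monoxide, had 8.18, 7.99 and 7.37 on MBP arrays 1 to 3, against 8.30, 7.93 and 7.34 on control arrays 1 to 3. Number 1 was at 1.85-fold and number 2 at 1.52-fold number 3 (F test, adjusted p = 0.0133). Nqo2 had 6.84, 6.64 and 6.24 on MBP arrays 1 to 3, against 6.80, 6.64 and 6.22 on control arrays 1 to 3 (F test, adjusted p = 0.0182). Hmox2 was below background on all arrays.

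**Figure D3:**
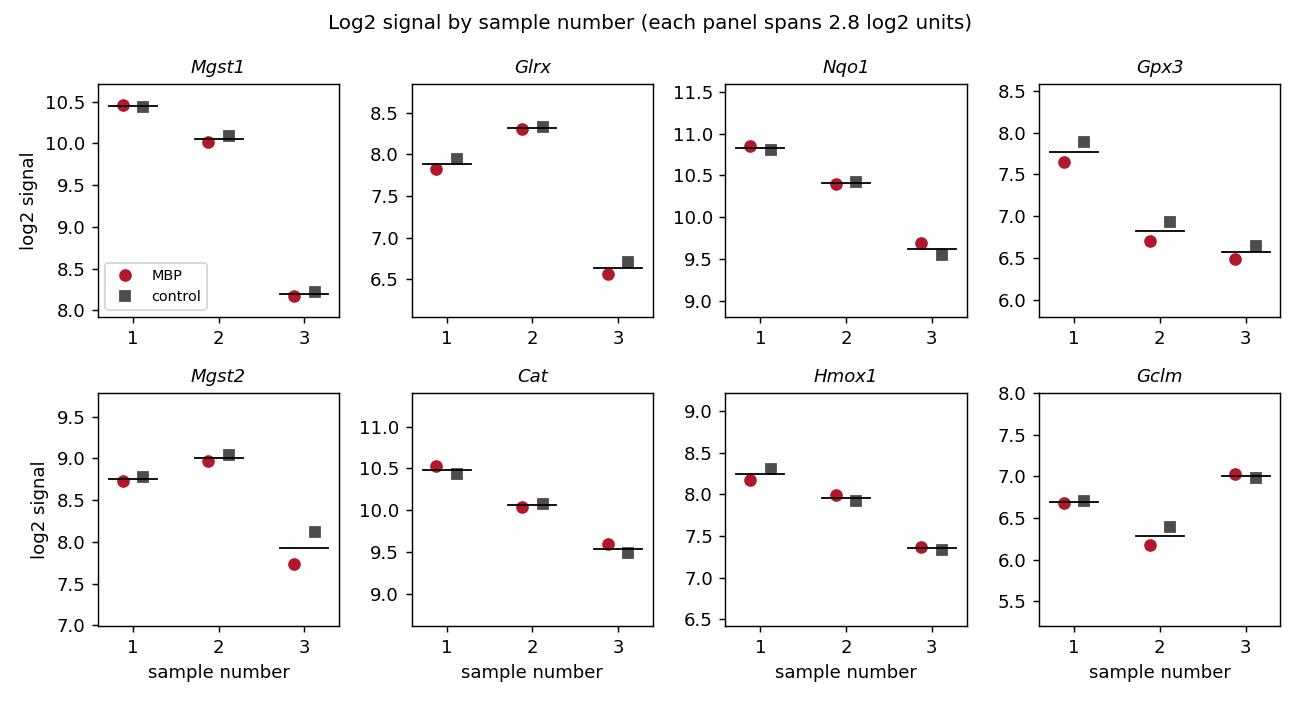
Log2 signal by sample number for 8 genes that passed the F test between numbers, with MBP as circles, control as squares and bars at the mean of the 2 arrays of a number. Each panel spans the same height in log2 units. In number 3, Mgst1 is at 8.18 with MBP and 8.22 in control, and Gclm is highest, at 7.02 with MBP and 6.98 in control.

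**Figure D4:**
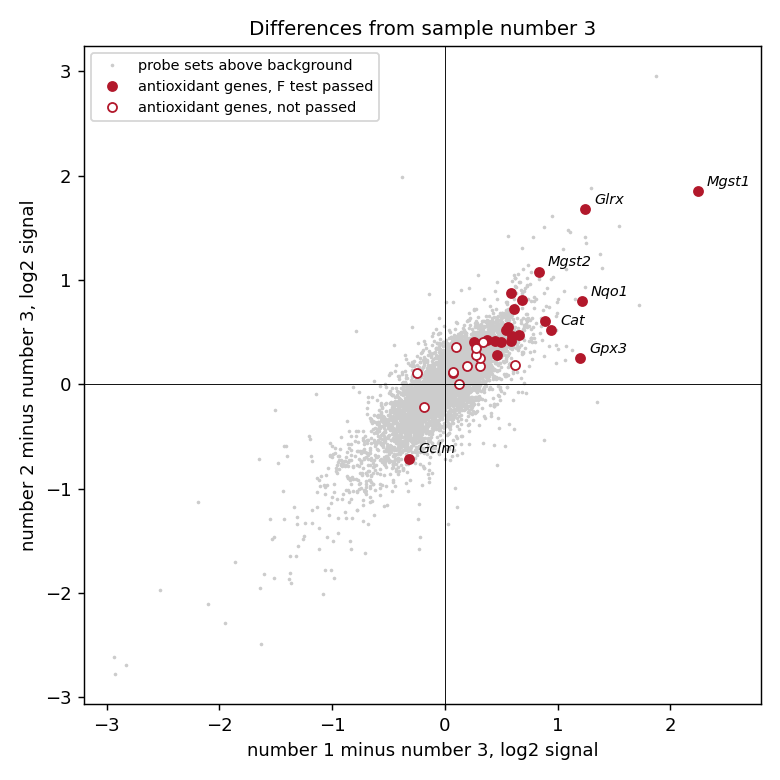
Difference of number 1 minus number 3 (horizontal) and of number 2 minus number 3 (vertical) in log2 signal, for all probe sets above background (grey) and the 34 antioxidant genes among them (red, filled where the F test passed). Both axes share the arrays of number 3, so the tilt of the cloud is no result. Of the 34 genes, 31 lie above 0 on the horizontal axis, and Gclm is the filled point below it.

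Promoter sequence was set beside these patterns for genes that differed between numbers, 4 with number 3 low and Gclm with number 3 high. RefSeq windows of the 250 bases before the gene start (build GRCr8) were at hand for 43 of the 49 genes, and not for Gsr, Gstt2, Hmox1, Mgst2, Prdx6 and Sod3. The core of the antioxidant response element, TGACNNNGC on either strand, was in 9 of these 43 windows, or 20.9%, against 10.2% of 27457 rat promoter windows. It was in 3 of the 21 windows of genes that passed between numbers and in 6 of the 22 others. Capitals mark the core in the windows below, each in the direction of its gene, and Mgst1 and Nqo1, shown as genes of wide spread, have no such letters in this window.
Mgst1, chr4:172760680-172760929, plus strand: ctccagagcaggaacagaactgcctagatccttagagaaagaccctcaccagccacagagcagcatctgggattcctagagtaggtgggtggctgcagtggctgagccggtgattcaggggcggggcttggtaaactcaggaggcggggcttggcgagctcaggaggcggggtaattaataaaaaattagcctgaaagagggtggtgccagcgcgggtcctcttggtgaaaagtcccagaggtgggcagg
Nqo1, chr19:52220268-52220517, minus strand: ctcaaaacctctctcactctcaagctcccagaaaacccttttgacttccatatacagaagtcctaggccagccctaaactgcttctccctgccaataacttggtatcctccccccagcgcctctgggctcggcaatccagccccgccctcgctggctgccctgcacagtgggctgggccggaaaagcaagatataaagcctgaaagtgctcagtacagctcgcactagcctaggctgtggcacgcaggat
Gclm, chr2:213031885-213032134, plus strand: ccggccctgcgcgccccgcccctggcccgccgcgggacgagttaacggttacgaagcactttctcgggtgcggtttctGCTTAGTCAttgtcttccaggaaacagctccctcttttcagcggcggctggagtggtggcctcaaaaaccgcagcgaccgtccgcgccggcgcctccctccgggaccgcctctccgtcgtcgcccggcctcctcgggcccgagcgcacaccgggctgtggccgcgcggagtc
Gstp1, chr1:210769706-210769955, minus strand: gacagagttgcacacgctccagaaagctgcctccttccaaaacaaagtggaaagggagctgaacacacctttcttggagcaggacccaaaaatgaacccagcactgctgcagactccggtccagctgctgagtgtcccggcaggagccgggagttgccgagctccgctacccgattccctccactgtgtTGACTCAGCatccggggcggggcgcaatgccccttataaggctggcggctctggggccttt
Prdx1, chr5:135383656-135383905, plus strand: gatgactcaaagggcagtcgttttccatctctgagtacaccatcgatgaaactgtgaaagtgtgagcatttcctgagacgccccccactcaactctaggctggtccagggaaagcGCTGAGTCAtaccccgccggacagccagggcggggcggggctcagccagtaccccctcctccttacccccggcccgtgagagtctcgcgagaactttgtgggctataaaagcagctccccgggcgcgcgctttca
The core is centred 168 bases before the start in Gclm, 131 in Prdx1 and 57 in Gstp1. Gclm and Prdx1 hold it on the other strand, and Gclm was highest and Prdx1 lowest in number 3. The Prdx1 window is that of the gene on chromosome 5, not of the chromosome 2 locus of its brightest probe set.

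Probe sets that name a gene of the set together with another symbol were not members. Txnrd1, Gpx1 and Srxn1 fell out because the annotation spells their symbol also in capitals. The probe set for Txnrd1, cytosolic thioredoxin reductase, had 8.37, 8.37 and 8.09 on MBP arrays 1 to 3, against 8.24, 8.38 and 8.13 on control arrays 1 to 3. That for Gpx1, cytosolic glutathione peroxidase, had 9.44, 9.28 and 9.24 on MBP arrays 1 to 3, against 9.44, 9.32 and 9.25 on control arrays 1 to 3, and Srxn1 was below background throughout. Alpha class probe sets shared between symbols were not tested as members and had their lowest values in number 3. Of these, only the one for GSTA1 and Gsta3 was above background on all arrays. Those for Gsta4 and LOC688925 were below background in number 3, and those for Gsta2 and Gsta5 on most or all arrays. The one for GSTA1 and Gsta3 had 9.17, 8.97 and 8.29 on MBP arrays 1 to 3, against 9.30, 9.06 and 8.47 on control arrays 1 to 3, and one for Gsta4 and LOC688925 had 7.36, 6.89 and 5.34 on MBP arrays 1 to 3, against 7.31, 6.78 and 5.30 on control arrays 1 to 3.

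Genes around the antioxidant enzymes were read from 6 lists, and none of their members passed for MBP (0 of 93 measured). Counts between numbers stand beside 9.62% of all probe sets and 24.1% of those above background. Among regulators of NRF2, 2 of 9 genes passed between numbers, or 22.2%, and 1 of 7 above background, or 14.3%. These were Sqstm1, an autophagy receptor that binds KEAP1, at 8.79, 8.69 and 8.15 on MBP arrays 1 to 3, against 8.76, 8.69 and 8.19 on control arrays 1 to 3 and lowest in number 3 (F test, adjusted p = 0.016), and Maff, which was below background on every array. Nfe2l2 itself had 9.72, 9.60 and 9.52 on MBP arrays 1 to 3, against 9.77, 9.61 and 9.50 on control arrays 1 to 3 and did not pass (F test, adjusted p = 0.14). For MBP the 2 of smallest p were Bach1, a repressor at the same sites, and Nfe2l1, with differences of -0.07 and 0.07 (limma, adjusted p = 1 for both).

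Of 21 genes for cystine uptake and glutathione turnover, 7 passed between numbers, or 33.3%, beside 9.62% of all probe sets, with 3 lowest and 4 highest in number 3. Of the 10 above background 4 passed, or 40%, beside 24.1%. Slc7a11, the cystine and glutamate exchanger, had 8.39, 8.72 and 7.50 on MBP arrays 1 to 3, against 8.24, 8.73 and 7.65 on control arrays 1 to 3 (F test, adjusted p = 0.0124). Slc1a4, a neutral amino acid carrier, went the other way at 6.99, 6.65 and 7.84 on MBP arrays 1 to 3, against 7.02, 6.95 and 7.80 on control arrays 1 to 3 (F test, adjusted p = 0.0166). For MBP, Ggt6 and Ggct, both below background on 1 or more arrays, had the smallest p, with differences of 0.18 and 0.07. NADPH supply had 5 of 14 passing, or 35.7%, with 2 lowest and 3 highest in number 3, and 4 of 10 above background. Malic enzyme Me1 was highest there, at 8.96, 8.62 and 9.66 on MBP arrays 1 to 3, against 8.90, 8.60 and 9.54 on control arrays 1 to 3 (F test, adjusted p = 0.00848), and so was the folate enzyme Mthfd2 (F test, adjusted p = 0.0246). Isocitrate dehydrogenase Idh2 had the smallest MBP p of the list (difference -0.15, limma, adjusted p = 1), followed by Me2 with a difference of -0.13.

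Iron and heme genes had 4 of 13 passing between numbers, or 30.8%, beside 9.62% of all probe sets, and these were 4 of the 10 above background, or 40%, beside 24.1%. Ferritin heavy chain, Fth1, was lowest in number 3 at 11.21, 11.16 and 10.51 on MBP arrays 1 to 3, against 11.27, 11.16 and 10.63 on control arrays 1 to 3 (F test, adjusted p = 0.0145), and the iron carrier Slc11a2 was highest in number 2 (F test, adjusted p = 0.0332). Pcbp2 and Blvrb had the smallest MBP p, with differences of -0.06 and 0.28, Blvrb being below background on every array. Of 23 selenium, methionine repair and redox helper genes 4 passed, or 17.4%, and 3 of 14 above background, or 21.4%. Txnip, which binds and inhibits thioredoxin, was highest in number 3 at 8.88, 8.61 and 9.21 on MBP arrays 1 to 3, against 8.86, 8.64 and 9.14 on control arrays 1 to 3 (F test, adjusted p = 0.0249), and the sestrin Sesn3 was highest in number 1 (F test, adjusted p = 0.0187). Eefsec, the elongation factor for selenocysteine, was highest in number 2, and Cbr3 was below background on every array. Txnip and Eefsec were named after their values were seen. Txndc12 and Park7 had the smallest MBP p, with differences of -0.13 and -0.05. Among 13 generators of superoxide and peroxide, 3 passed, or 23.1%, of which monoamine oxidase A was above background on all arrays. Maoa had 9.18, 8.42 and 8.22 on MBP arrays 1 to 3, against 9.19, 8.39 and 8.18 on control arrays 1 to 3 (F test, adjusted p = 0.00741), lowest in number 3, and xanthine dehydrogenase Xdh and Nox4, both below background on every array, were lowest and highest there. Noxo1 and Ncf4, both below background on every array, had the smallest MBP p, with differences of 0.08 and 0.09.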

How the data were processed

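Total RNA of 6 cultures was hybridised to a whole-transcript rat gene array, 3 with MBP and 3 controls. The deposited values are log2 signals per probe set, with nearly the same quartiles on every array, as after a normalization by the authors. MAS5 is named per the submitters' processing notes, without a role, and the sources used here do not give the method behind these values. The annotated table served for symbols, categories and positions (Rnor_5.0), and its 6 signal columns were not used, since their names match no sample label. The arrays' number limits the precision.

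limma 3.58.1 (R 4.3.3) was fitted to all 27342 main probe sets. It recovered changes put into simulated data, whose noise came from the fit with the number as a block. Those data held no other differences between numbers. Whether the fit without the block would recover such changes in these arrays was therefore not tested. MBP minus control had no block, and the 3 sample numbers were compared by an F test with the group in the model, which left 2 residual degrees of freedom. Same-numbered arrays deviated together, so the numbers were taken to pair the samples, on the data alone. Members and lists were chosen with earlier results of these data known. Named genes were those passing the F test, at most 15 by range of number means, the 5 of smallest MBP p, and fill-ins so that each role was shown; Sod1 and genes below background on some arrays were added after their values were seen. Alternatives were scaling, a filter on dim probe sets, the variance prior, the block and arrays left out. MicroRNA arrays were not analysed here.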

Additional observations from a re-analysis of the deposited data

How the results depend on the processing

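The number of antioxidant genes that passed limma's adjusted test for MBP was 0 (1 at an unadjusted p under 0.05) in the fit reported and 0 under every alternative run, the replicate block included, where the median difference was -0.019. That median moved to -0.044 with median centring, and with 1 array left out it ranged from -0.155 to 0.0869. The count of all probe sets that differed between sample numbers was 2630, and 4052 where only the 6341 probe sets above background were fitted. That count and the 24 antioxidant genes in it fell to 0 without any 1 array, and to 0 where both arrays of number 1, 2 or 3 were left out, an alternative chosen after seeing the data. Those fits have 1 residual degree of freedom. Under the other 6 settings the antioxidant genes that passed numbered 28 with median centring, 28 with quantile normalization, 31 of 34 where only probe sets above background were fitted, 30 with a variance trend, 27 without the group term and 29 with the mean of a symbol's probe sets, a fit over 20472 rows in place of 27342. Of the 30 named genes these settings gained 27 calls in 180 (Gss in 6 of 6, Gstm5, Sod2 and Sod3 in 5, Txn1 in 3, Gclc, Prdx4 and Prdx6 in 1) and lost 1, Glrx5 without the group term. Genes above background on all arrays numbered 12 at the 99th percentile of the intron controls, against 34 at the 95th. The sign of the MBP difference of the 30 named genes, none of which passed, changed in 64 of 180 fits with 1 array left out, 14 of 90 with a number left out and 11 of 180 others.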
